A study of Rattus norvegicus with 399 samples.

Results

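The 5 genes described here, Vwf, Pecam1, Nos3, Sele and Esm1, are made mainly by endothelial cells, the cells that line blood vessels. They were picked by gene symbol, and each is read by 1 probe of a panel of 2654 probes that carry 2603 symbols. The panel is TempO-Seq Rat S1500+, a targeted assay in which a pair of short DNA detectors is ligated on a chosen stretch of a transcript and then counted by sequencing. All 5 probes were counted without attenuation, the dilution of detectors that is used for very abundant transcripts.

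All animals were female Sprague-Dawley rats aged 9 weeks, and tissues were taken on study day 5. Exposed groups received 1,2-dichlorobenzene (1,2-DCB) at 1, 10, 30, 100, 250 or 500 ppm, or 1,4-dichlorobenzene (1,4-DCB) at 1, 10, 50, 150, 400 or 800 ppm. The control rats, at 0 ppm, were a separate set for either compound. In 1,2-DCB the chlorine atoms sit on neighbouring carbons of the benzene ring, and in 1,4-DCB on opposite ones. Heart, kidney, liver, lung and ovary of the same rats were profiled. A full group held 5 exposed or 10 control libraries. Lungs of 1,4-DCB rats were fewer, with 4 libraries each at 1, 10 and 150 ppm, 3 at 400 ppm and 8 controls. The other short groups were lung with 500 ppm of 1,2-DCB (4 libraries), kidney with 1 ppm of 1,4-DCB (4) and the 1,2-DCB control kidneys (9). Of 399 libraries, 390 were used. The sources used here do not give the route of exposure.

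Endothelial cells form a barrier that decides what leaves the blood, keep the blood fluid, set vessel width and recruit leukocytes during inflammation. Vwf encodes von Willebrand factor, a clotting protein that is stored in endothelial granules and in platelets. Pecam1 encodes CD31, an adhesion protein of the junctions between endothelial cells that platelets and many leukocytes carry as well. Nos3 encodes endothelial nitric oxide synthase, whose product relaxes vessels. Sele encodes E-selectin, the receptor that slows leukocytes on activated endothelium and is known in cultured endothelium to be switched on by inflammatory cytokines through NF-kB. Esm1 encodes endocan, a secreted proteoglycan that is induced by VEGF and is strong in growing vessels, in lung and in kidney.

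Start-site sequences from RefSeq (build GRCr8) were matched for 3 of the 5 genes, Nos3, Sele and Esm1. The windows of Sele and Esm1, 250 bases before to 50 after the start, are shown because Sele carried the only called rise below and Esm1 the fall in lung. The Sele window lies within the span that RefSeq gives the gene. Capitals mark GGAA, the core motif of the ETS factors that act in endothelial cells, or TTCC where it lies on the other strand.
Sele (chr13:78936264-78936563, plus strand): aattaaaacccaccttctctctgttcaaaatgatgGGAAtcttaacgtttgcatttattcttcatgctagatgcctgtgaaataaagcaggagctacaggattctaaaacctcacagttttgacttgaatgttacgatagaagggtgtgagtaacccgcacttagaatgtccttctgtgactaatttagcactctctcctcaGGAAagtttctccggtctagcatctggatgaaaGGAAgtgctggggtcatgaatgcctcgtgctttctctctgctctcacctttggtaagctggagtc
Esm1 (chr2:46609003-46609302, plus strand): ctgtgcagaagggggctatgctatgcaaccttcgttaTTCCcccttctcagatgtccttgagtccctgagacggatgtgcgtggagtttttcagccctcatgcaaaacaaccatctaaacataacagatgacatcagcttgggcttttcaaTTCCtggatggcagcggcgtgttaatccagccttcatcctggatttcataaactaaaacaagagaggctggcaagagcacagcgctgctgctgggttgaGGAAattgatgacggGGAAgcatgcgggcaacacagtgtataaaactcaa
The Sele window held 3 matches, and the windows of Esm1 and Nos3 held 4 each. GGAA is common, since 95.8% of 33469 RefSeq windows of the same length held at least 1 match on either strand, with a median of 3. Only 1 pattern of NF-kB letters was searched, and it was in none of the 3 windows, against 1.53% of all windows. Other forms of the NF-kB site were not searched. The Sele window starts inside the gene's span, so the bases before that span were not searched either. The lack of a match therefore does not show that Sele has no NF-kB site. The TATA letters TATAAA, found in 14.2% of all windows, occurred once in the window of Esm1, 38 bases after the start and not before it. The Sp1 letters GGGCGG, found in 33.1%, occurred once in the window of Nos3. These matches describe letters, not factor binding.

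The control libraries fitted their tissue labels wherever the panel held markers. Cardiac muscle markers took 30.3% to 42.2% of the counts of control hearts and hepatocyte markers 43.6% to 53.6% of those of control livers, and every control heart, kidney, liver and ovary had more of its own tissue's markers than any control library of another tissue. None of the 9 lung epithelium markers on the list was on the panel. Totals ran from 1.2 to 69.8 M counts (median 22.6 M), with medians of 12.8 M in heart and 41.9 M in liver. Levels below are normalized CPM, counts scaled to 1 M counts (M, mega) of a library total corrected by TMM factors. For comparisons between control tissues these were set over all control libraries, and for the exposures they were set within a tissue and compound, so a gene's level differs between these scales. In bulk tissue, fewer endothelial cells and less RNA per endothelial cell cannot be told apart.

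Control tissues differed strongly in all 5 genes, and each gene had its own order. Over the control libraries of both compounds, Vwf averaged 461 ± 98.7 CPM in lung (SD, n = 18), 204.3 ± 50.7 in kidney (n = 19), 169 ± 46.1 in heart (n = 20), 30.8 ± 5.95 in ovary (n = 20) and 19.5 ± 4.22 in liver (n = 20). Lung stood above kidney in 17 of 17 rats that had both (permutation test with sign flips within rats, two-sided, adjusted p = 6.7e-05), and kidney above heart in 15 of 19 (adjusted p = 0.012). The gap between kidney and heart, 0.28 on the log2 scale, was no longer called with DESeq2 size factors (0.20, adjusted p = 0.074), with counts divided by each probe's attenuation step (0.20 with kidney higher in 11 of 19 rats, adjusted p = 0.083) or in the 1,4-DCB controls alone (0.08, adjusted p = 0.42), and in the 1,2-DCB controls alone it was 0.51 (adjusted p = 0.026, permutation tests). The other neighbours in the Vwf order differed under each of these settings. Pecam1 followed another order, with 132.8 ± 23.7 CPM in lung, 83.6 ± 10.2 in heart, 32.4 ± 6.47 in ovary, 32.1 ± 5.39 in kidney and 16.5 ± 3.95 in liver. Ovary and kidney could not be separated for Pecam1 (p = 0.91, ovary higher in 8 of 19 rats, permutation test), while the other neighbours differed.

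Nos3 and Sele were highest in heart. Nos3 averaged 10.4 ± 2.07 CPM in heart and 2.89 ± 0.83 in ovary, a difference of 1.86 on the log2 scale that held in 20 of 20 rats (permutation test, adjusted p = 5e-05). Lung, liver and kidney, at 1.69 ± 0.64, 1.45 ± 0.84 and 1.22 ± 0.67 CPM, did not differ between neighbours for Nos3. Sele was the scarcest of the 5 in its counts. Its level was 2.69 ± 1.04 CPM in heart, 1.16 ± 0.39 in lung, 1.13 ± 0.57 in ovary and 0.28 ± 0.27 in kidney. In liver, 17 of 20 control libraries had no Sele count and the others at most 3; a count of 0 allows up to 3 counts, which is 0.0448 to 0.0955 CPM of the library total there. Lung and ovary did not differ for Sele (adjusted p = 0.48), whereas heart exceeded lung in 16 of 18 rats (adjusted p = 9.2e-05, permutation tests).

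Esm1 was again highest in lung, at 22.5 ± 4.57 CPM, before kidney at 11.997 ± 3.87, heart at 3.91 ± 1.91, ovary at 3.80 ± 1.85 and liver at 0.54 ± 0.42. Lung exceeded kidney for Esm1 in 16 of 17 rats (adjusted p = 0.00011, permutation test), and heart and ovary did not differ (adjusted p = 1). Over all 5 genes, 15 of the 20 neighbouring pairs of tissues differed. The smallest p that these permutations can give is 2e-05. Levels in liver and ovary and several orders depend on the scaling. With CPM of the library total in place of TMM, Vwf averaged 71.9 CPM in ovary and 3.31 CPM in liver, so that their difference was 4.42 on the log2 scale in place of 0.67, and Pecam1 averaged 75.7 CPM in ovary and 2.80 CPM in liver. On that scale 19 of the 20 pairs differed. Pecam1 was higher in ovary than in kidney by 0.92 in 18 of 19 rats and Nos3 higher in lung than in liver by 3.29 in 18 of 18 (adjusted p = 5.3e-05 for both, permutation tests). Nos3 was then also higher in kidney than in liver and Esm1 higher in ovary than in heart, while the tissue with the highest mean of each gene was the same.

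**Figure D1:**
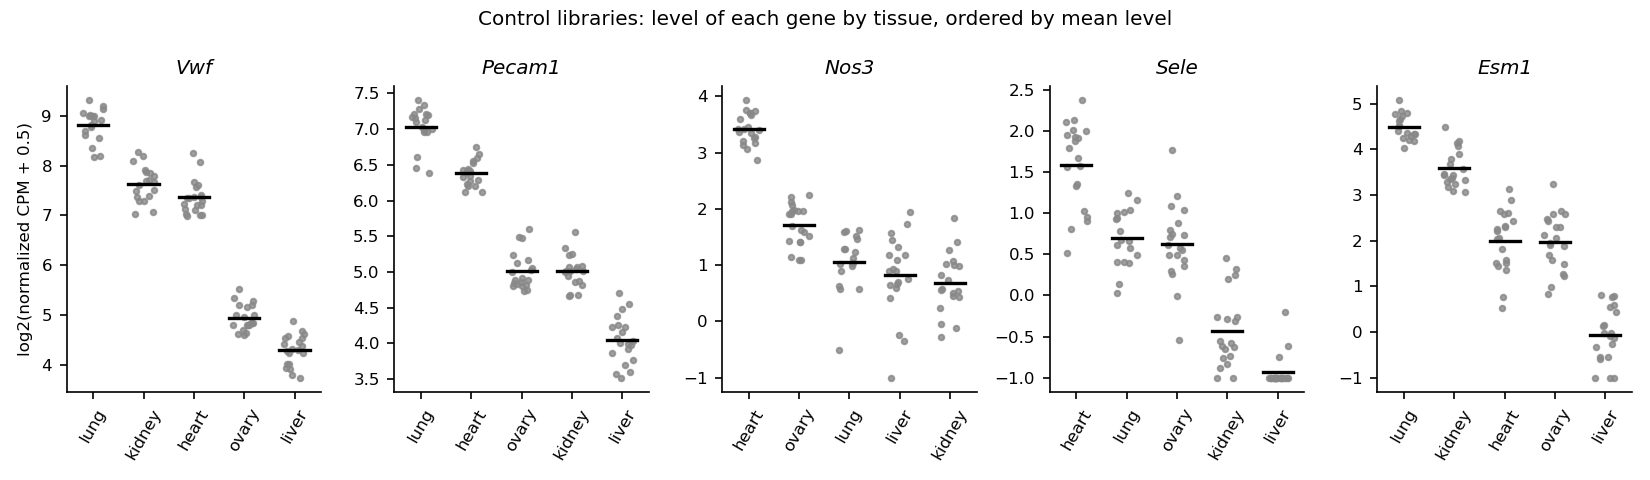
Level of each of the 5 genes in control libraries of 5 tissues, as log2 of normalized CPM + 0.5 on the vertical axis. Each point is a library (n = 18 to 20 a tissue), bars are means, and tissues run from the highest to the lowest mean; Vwf, Pecam1 and Esm1 peak in lung, Nos3 and Sele in heart, and Sele lies at the floor in liver, where 17 of 20 libraries had no count.

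Across the 70 group means (5 tissues, 2 compounds and 7 concentrations each), the genes were alike to differing degrees. Vwf and Esm1 had a Pearson r of 0.87 between their log2 levels, Vwf and Pecam1 0.85, and Nos3 and Sele 0.78. Pecam1 and Esm1 had 0.74, and Pecam1 and Sele 0.71. The other r ran from -0.095 for Nos3 and Esm1 through 0.096 for Vwf and Nos3 to 0.42 for Pecam1 and Nos3. These points share tissues and libraries, so r mostly describes the tissues. The genes whose pattern was most like Vwf were Ly6c (r = 0.952), Arhgap1 (0.944) and Rassf1 (0.932). For Pecam1 they were Csnk1e (0.971), Ehd2 (0.967) and Cav1 (0.963), the last a caveolae protein abundant in endothelium. For Nos3 they were Akt1 (0.968), Twf2 (0.962) and Acta1 (0.961), and for Sele Kcnk2 (0.949), Mef2c (0.947) and B4galt2 (0.942). Esm1 was most like Tspan8 (0.974), Bmp4 (0.973) and Ch25h (0.971).

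After exposure the junction gene Pecam1 was called most often of the 5. At the top concentration its change was negative in 10 of 10 combinations of tissue and compound, from -0.76 to -0.0072 on the log2 scale, and it fell in 4 of them. Sele was positive in all 8 combinations in which it could be tested, from 0.43 to 0.98, but was called in none of them. The tissues of a compound came from the same rats and controls, so these combinations are not independent. Vwf and Nos3 fell in 1 combination each, and so did Esm1, although Esm1 was positive in 8 of 10. A gene is called here when its Benjamini-Hochberg adjusted p over all probes tested in a comparison, from edgeR's quasi-likelihood test, is below 0.05. Over all probes the share called in these 10 comparisons ran from 2.91% to 67.8%. Of the 4 calls on Pecam1, 3 were lost in some leave-one-out fits, the exception being 1,2-DCB liver. Sele was too low to be tested in liver.

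**Figure D2:**
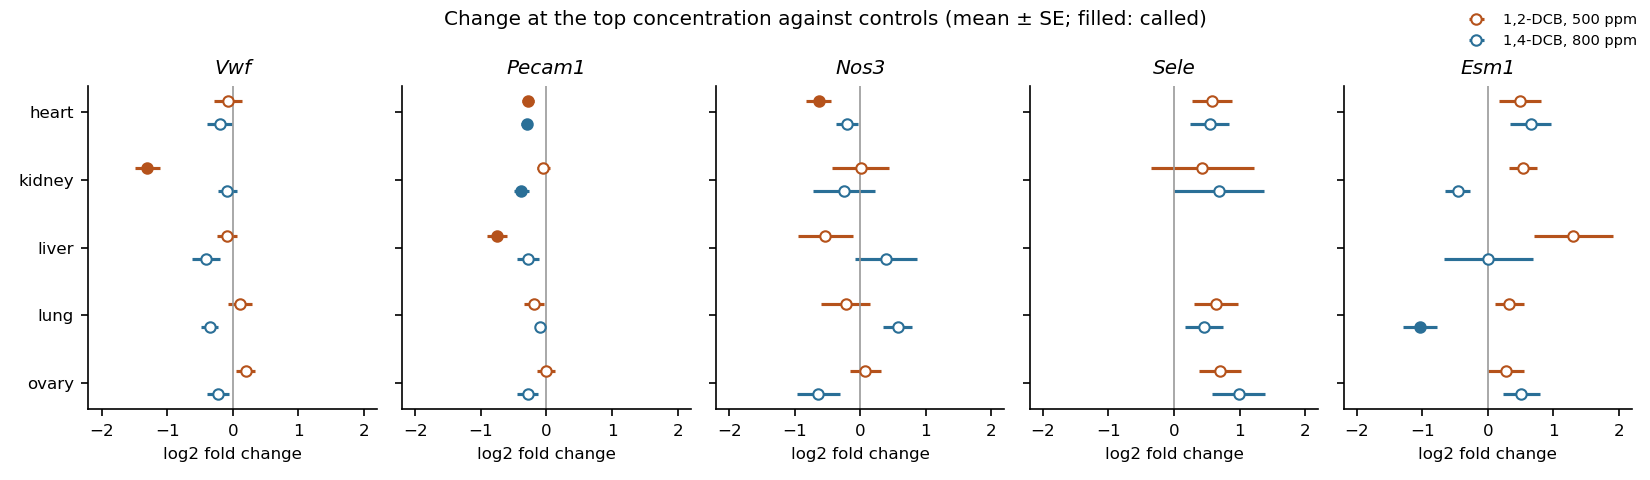
Change of each gene at the top concentration against the compound's controls, as log2 fold change on the horizontal axis, for 1,2-DCB at 500 ppm (orange) and 1,4-DCB at 800 ppm (blue) in 5 tissues. Points are fitted changes, bars their SE, filled points are called; Pecam1 lies at or left of 0 throughout, Sele lies right of 0 throughout, and the largest called change is Vwf in 1,2-DCB kidney at -1.30.

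Vwf fell in kidney at 500 ppm of 1,2-DCB. Its levels were 102.8, 112.3, 122.2, 129.9 and 136.4 CPM in the 5 exposed kidneys, and in the 9 control kidneys they ran from 164 through a median of 295 to 392 CPM. The groups did not overlap. The mean was 120.7 ± 13.5 CPM in exposed kidneys and 297 ± 68.7 CPM in control kidneys, a log2 fold change of -1.30 ± 0.20 (SE, adjusted p = 8.95e-06), or 40.6% of control with an interval of 30.7% to 53.7%. Between 3015 and 4689 raw counts stood behind each exposed value. By P value Vwf ranked 37th of 2363 probes there, of which 16.4% were called and 7.7% were called lower, and it was the 1 of the 5 genes called. Every leave-one-out fit kept the call, with changes between -1.37 and -1.24.

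Lower concentrations of 1,2-DCB gave kidney Vwf means of 238, 243, 233, 211 and 215 CPM at 1, 10, 30, 100 and 250 ppm, none of them called. Their changes had adjusted p of 0.505 and above, although at 100 and 250 ppm the unadjusted p were 0.0138 and 0.0188. A slope fitted over the 7 ranked concentrations was -0.15 ± 0.03 log2 units per step (adjusted p = 0.00069), where 8.93% of probes had a called slope. Without the top concentration that slope was -0.10 ± 0.03 and not called (adjusted p = 0.331). In the kidneys of rats given 1,4-DCB at 800 ppm, Vwf averaged 201.2 ± 24.4 CPM against 213 ± 33.7 CPM in their controls (log2 fold change -0.08 ± 0.15, adjusted p = 0.845). These top concentrations differ, so no test between the compounds was made there.

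The kidney response of Vwf also differed from that of other tissues. Its change at 500 ppm in kidney minus the mean of its changes in the other 4 tissues was -1.33 ± 0.21 (adjusted p = 6.56e-07), in a contrast that called 8.65% of probes. For ovary the same contrast gave 0.55 ± 0.20 (adjusted p = 0.0405, 14.2% of probes called), where kidney is among the other tissues. Markers of other cells moved in the same kidneys. Of 9 fibroblast markers 3 fell, and their sum was 325 to 558 CPM in exposed and 730 to 1198 CPM in control kidneys. Of 13 leukocyte markers 5 fell, with sums of 790 to 1235 CPM in exposed and 1515 to 1980 CPM in control kidneys. Platelet markers, which share Vwf with endothelium, summed to 26.7 to 59.3 CPM in exposed and 24.6 to 39.4 CPM in control kidneys, and none of 3 was called. The part of these cells in the change of Vwf was not tested.

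Of 34 other probes of the endothelial lists tested in 1,2-DCB kidneys 2 rose and 3 fell, where 16.4% of all probes were called. These lists also hold signalling genes such as Vegfa and Vegfb, and which cells made the transcripts was not tested. Nrp1, a VEGF co-receptor, changed by -0.45 ± 0.11 (adjusted p = 0.00307), 1 probe of the chemokine Cxcl12 by -0.49 ± 0.14 (0.0129) and Vegfb by -0.24 ± 0.07 (0.0194). No other Cxcl12 probe was called there. Vegfa rose by 0.27 ± 0.07 (0.0111) and Procr, the endothelial protein C receptor, by 0.71 ± 0.23 (0.0301). Pecam1 in these kidneys was 38.8 ± 2.74 CPM in exposed and 40.0 ± 6.32 CPM in control rats, a change of -0.05 ± 0.10 (adjusted p = 0.81). Vwf was thus called and Pecam1 was not in the same libraries, and the difference between the genes was not tested. Esm1 was at 14.5 to 33.4 CPM in exposed and 9.91 to 27.99 CPM in control kidneys (0.54 ± 0.21, adjusted p = 0.072), and was called when control rat F2 or F5 or exposed rat F601 was left out (adjusted p = 0.0383, 0.00617 and 0.0381).

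Pecam1 fell in heart with both compounds, to 82.1% of control at the top of 1,2-DCB and to 80.99% at the top of 1,4-DCB. At 500 ppm of 1,2-DCB the exposed hearts had 84.4, 84.96, 86.7, 99.3 and 107.2 CPM, and the 10 control hearts ran from 96.9 through 110.3 to 135.1 CPM. Of the 5 exposed hearts 3 lay below all controls and the others overlapped them. The means were 92.5 ± 10.2 CPM in exposed and 112.7 ± 12.1 CPM in control hearts (log2 fold change -0.28 ± 0.09, adjusted p = 0.0318). In the same fit 12% of probes were called and 6.79% were called lower, against 2 of the 5 genes, Pecam1 and Nos3. The call on Pecam1 was lost when exposed rat F601, F603 or F604 was left out (adjusted p = 0.105, 0.0968 and 0.115) and when control rat F4, F5 or F9 was (0.0653, 0.0534 and 0.053), with changes between -0.34 and -0.24 over all leave-one-out fits.

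In 1,2-DCB hearts Pecam1 also had a called slope over the concentrations. Means were 123.1, 100.6, 97.8, 96.1 and 92.6 CPM at 1, 10, 30, 100 and 250 ppm, and none of these concentrations was called. The slope of Pecam1 was -0.06 ± 0.01 log2 units per step (adjusted p = 0.00198), in a fit where 8.37% of slopes were called; without the top concentration it was -0.07 ± 0.02, no longer called (unadjusted p = 0.000103, adjusted p = 0.0739). At 800 ppm of 1,4-DCB the hearts had 65.9, 69.7, 72.2, 73.95 and 78.4 CPM, and their 10 controls ran from 76.5 through 85.8 to 112.4 CPM, so 4 of 5 exposed hearts lay below all controls. The means were 72.04 ± 4.65 CPM in exposed and 89.1 ± 10.5 CPM in control hearts (-0.30 ± 0.08, adjusted p = 0.0209), where 6.86% of probes were called and 3.8% called lower. It was the 1 of the 5 genes called there, and leaving out exposed rat F602 or F603 ended the call at changes of -0.29 and -0.30 (adjusted p = 0.0644 and 0.0555). Its slope with 1,4-DCB was not called (adjusted p = 0.088; 6.67% of slopes called), and the means at 1 to 400 ppm lay between 85.8 and 92.9 CPM.

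Nos3 fell in heart at 500 ppm of 1,2-DCB. The exposed hearts had 6.18, 7.32, 8.23, 10.5 and 10.6 CPM and the controls ran from 10.2 through 12.1 to 18.7 CPM, so 3 of 5 exposed hearts lay below all controls. The means were 8.57 ± 1.96 CPM in exposed and 13.3 ± 2.88 CPM in control hearts (log2 fold change -0.63 ± 0.19, adjusted p = 0.0238), or 64.5% of control. Leaving out exposed rat F601, F603 or F604 ended the call on Nos3, with changes of -0.61, -0.57 and -0.53 (adjusted p = 0.0519, 0.0705 and 0.109). Below the top the means of Nos3 stayed between 11.2 and 12.1 CPM, and its slope was not called (adjusted p = 0.133). With 800 ppm of 1,4-DCB, Nos3 was 10.2 ± 2.23 CPM in exposed and 11.8 ± 2.12 CPM in control hearts (-0.20 ± 0.16, adjusted p = 0.553). Contrasts of heart with the other 4 tissues called none of the 5 genes, against 9.4% of probes with 1,2-DCB and 3.76% with 1,4-DCB.

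Of 33 other probes of the endothelial lists tested in 1,2-DCB hearts 2 rose and 2 fell, where 12% of all probes were called. Of 32 such probes in 1,4-DCB hearts 1 rose and 2 fell, where 6.86% of all probes were called. Cav1 fell with both compounds, by 0.32 ± 0.08 at 500 ppm of 1,2-DCB and by 0.22 ± 0.07 at 800 ppm of 1,4-DCB (adjusted p = 0.0047 and 0.0371). Apln, the ligand apelin, fell by 0.82 ± 0.17 and 0.57 ± 0.13 (adjusted p = 0.00058 and 0.00546). The adhesion receptor Icam1 rose by 0.71 ± 0.20 (0.0146) and Tnfaip3, an inhibitor of NF-kB signalling, by 0.72 ± 0.17 (0.00219) with 1,2-DCB, and the chemokine Ccl2 rose by 0.88 ± 0.22 (0.0106) with 1,4-DCB. In 1,2-DCB hearts 5 of 9 fibroblast markers fell, with sums of 815 to 1092 CPM in exposed and 2202 to 3493 CPM in control hearts. With 1,4-DCB 2 of 9 fell, with sums of 1831 to 2000 CPM in exposed and 1934 to 2898 CPM in control hearts. Of 12 leukocyte markers 1 fell with 1,2-DCB, with sums of 737 to 935 CPM in exposed and 816 to 1192 CPM in control hearts. With 1,4-DCB none of 12 was called, at 763 to 962 CPM in exposed and 684.5 to 956 CPM in control hearts. Of 8 hepatocyte markers 2 rose with 1,2-DCB and 3 fell with 1,4-DCB. The part of these cells in the heart changes of Pecam1 and Nos3 was not tested.

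Pecam1 fell in liver as well, by the most of its 4 called changes. At 500 ppm of 1,2-DCB the exposed livers had 1.43, 1.71, 1.81, 1.84 and 2.07 CPM, while the controls ran from 2.08 through 3.05 to 4.26 CPM. All 5 exposed livers lay below all controls. Means were 1.77 ± 0.23 CPM in exposed and 3.001 ± 0.66 CPM in control livers (log2 fold change -0.76 ± 0.16, adjusted p = 5.36e-05), or 59.1% of control, on 52 to 150 raw counts in exposed libraries. This is a small share of what moved, because 67.8% of liver probes were called and 32.7% called lower, and Pecam1 ranked 756th of 2019 by P value. It was the 1 of 4 tested genes called, and no leave-one-out fit or other setting that tested it ended the call.

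Means of Pecam1 in 1,2-DCB liver stayed between 2.76 and 2.94 CPM from 1 to 250 ppm. The slope of -0.07 ± 0.02 per step was called (adjusted p = 0.01; 57.2% of slopes called), and without the top concentration it was -0.02 ± 0.03 and not called (adjusted p = 0.664). Liver minus the mean of the other 4 tissues gave -0.79 ± 0.15 for Pecam1 (adjusted p = 2.28e-06; 46.7% of probes called). At 800 ppm of 1,4-DCB Pecam1 was 2.33 ± 0.46 CPM in exposed and 2.84 ± 0.83 CPM in control livers (-0.28 ± 0.17, adjusted p = 0.211). None of the 4 genes tested was called there, where 34.9% of probes were called and 15.4% called lower, and 26.8% of slopes. In the contrast of 1,4-DCB liver with the other tissues 20.7% of probes were called and none of the 5 genes. Vwf in 1,4-DCB liver was called lower when exposed rat F602 was left out (-0.68, adjusted p = 0.0178, against -0.41 ± 0.22 and 0.147 with it).

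Esm1 in liver was close to the floor. It had 0.30 ± 0.17 CPM in exposed and 0.12 ± 0.07 CPM in control livers at 500 ppm of 1,2-DCB (1.31 ± 0.61, adjusted p = 0.0539), and 4 of 5 exposed livers lay above all controls. Leaving out control rat F2, F5 or F10 or exposed rat F601 brought a call (adjusted p = 0.0424, 0.0425, 0.0481 and 0.0255). In these livers 67.8% of all probes were called and 32.7% were called lower. Of the 27 other probes of endothelial lists tested there 15 fell and 3 rose, with a median change of -0.56 against 0.035 over all probes. Those that fell included the VEGF receptor Kdr (-0.65 ± 0.11), the phosphatase Ptprb (-2.02 ± 0.55), Mrc1 of sinusoid endothelium and macrophages (-0.73 ± 0.10) and a Cxcl12 probe (-2.27 ± 0.14). Edn1, the constrictor endothelin (1.88 ± 0.58), Icam1 (0.59 ± 0.11) and Procr (1.15 ± 0.25) rose. Of 11 leukocyte markers 9 fell, with sums of 43.8 to 59.6 CPM in exposed and 85.2 to 120.5 CPM in control livers. In the same livers 2 of 2 red cell and 3 of 4 fibroblast markers fell. Of 9 hepatocyte markers 7 fell and 1 rose. Hepatocyte sums overlapped, at 477600 to 590900 CPM in exposed and 461600 to 679700 CPM in control livers. The part of these cells in the fall of Pecam1, which leukocytes carry too, was not tested.

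With 1,4-DCB, kidney Pecam1 was lower in a call near the threshold. Exposed kidneys at 800 ppm had 25.1, 26.6, 27.97, 34.03 and 36.3 CPM, and their controls ran from 30.1 through 38.5 to 55.6 CPM. Of the 5, 3 lay below all controls. The means were 30.0 ± 4.92 CPM in exposed and 39.2 ± 7.11 CPM in control kidneys (-0.38 ± 0.12, adjusted p = 0.045), where 5.03% of probes were called and 2.67% called lower, and 1 of the 5 genes. The call ended in 9 of 15 leave-one-out fits, namely without exposed rat F601, F602 or F603 or control rat F1, F2, F3, F4, F8 or F10 (adjusted p up to 0.154), and under 2 other settings, with changes between -0.46 and -0.32 over all leave-one-out fits. Its slope was not called, where 3.18% were, nor was the contrast with the other tissues, where 3.29% of probes were. Leukocyte markers in these kidneys summed to 1091 to 1376 CPM in exposed and 1356 to 1652 CPM in control rats, and 2 of 13 fell. Ace, the angiotensin-converting enzyme of endothelium and of kidney tubules, rose by 0.85 ± 0.19 (adjusted p = 0.00451). It was the 1 called of 34 other probes of the endothelial lists.

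Esm1 fell in lung at 800 ppm of 1,4-DCB. The 5 exposed lungs had 13.2, 19.1, 19.1, 22.7 and 33.7 CPM, and the 8 control lungs ran from 29.1 through 46.99 to 52.2 CPM. All but 1 exposed lung lay below all controls. The means were 21.6 ± 7.58 CPM in exposed and 44.1 ± 8.32 CPM in control lungs (log2 fold change -1.03 ± 0.26, adjusted p = 0.0138), or 48.9% of control with an interval of 34.1% to 70.3%, on 328 to 968 raw counts in exposed libraries. Of all probes 5.91% were called and 3.04% called lower, and Esm1 was the 1 of the 5 genes called. Without exposed rat F603 the change was -0.89 (adjusted p = 0.0515).

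Esm1 means in 1,4-DCB lung were 48.6, 45.4, 32.4, 49.5 and 39.1 CPM at 1, 10, 50, 150 and 400 ppm, without a call, and its slope was not called (adjusted p = 0.138; 2.49% of slopes called). The contrast of lung with the other tissues gave -1.16 ± 0.39 for Esm1 (adjusted p = 0.0718; 3.29% called), and -1.36 with the rat as a block, which called it (adjusted p = 0.0399). The block fit also estimated the dispersion in another way, which without the block gave -1.16 and no call (adjusted p = 0.101). With 500 ppm of 1,2-DCB Esm1 was 49.5 ± 10.8 CPM in exposed and 39.5 ± 8.26 CPM in control lungs (0.33 ± 0.22, adjusted p = 0.448). In those lungs none of the 5 genes was called, where 8.85% of probes were called and 4.68% called lower, 1.73% of slopes and 3.75% in the contrast with other tissues. In the 1,4-DCB lungs Nos3 was 5.16 ± 1.27 CPM in exposed and 3.47 ± 0.79 CPM in controls (0.57 ± 0.22, adjusted p = 0.121), and Vwf 765 ± 91.03 CPM in exposed and 974.7 ± 127.3 CPM in control lungs (-0.35 ± 0.13, adjusted p = 0.115). Of 36 other probes of the endothelial lists in 1,4-DCB lungs 4 fell and none rose. Of all probes in these lungs 5.91% were called and 3.04% called lower. Those that fell were Adm, which encodes the dilator adrenomedullin, by 1.02 ± 0.19, Kdr by 0.48 ± 0.15, Lpl by 0.43 ± 0.09 and Ptgs1 by 0.32 ± 0.10. Red cell markers summed to 9256 to 13800 CPM in exposed and 5557 to 10090 CPM in control lungs, and 1 of 2 rose. Of 14 leukocyte markers 2 rose, with sums of 61510 to 93330 CPM in exposed and 59980 to 87230 CPM in control lungs. The part of these cells in the lung values was not tested.

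**Figure D3:**
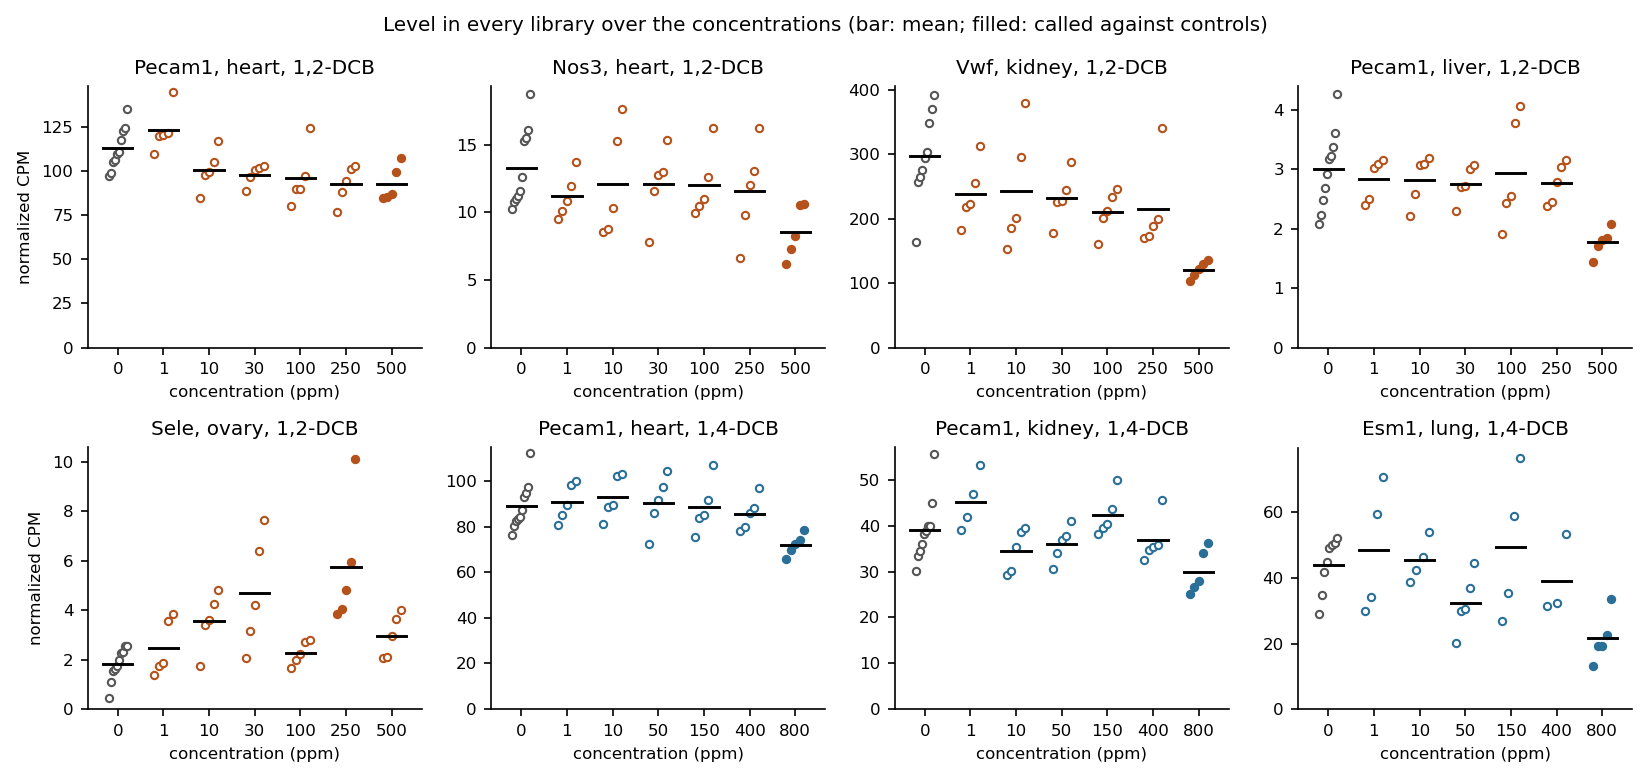
Normalized CPM in every library over the concentrations, in ppm on the horizontal axis, for the 8 combinations of gene, tissue and compound with a call. Each point is a library, bars are means, and filled points mark a called concentration; 7 of the 8 calls are falls at the top concentration, and Sele in 1,2-DCB ovary is a rise at 250 ppm, where all 5 libraries lie above all 10 controls.

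Sele rose in ovary at 250 ppm of 1,2-DCB. Exposed ovaries had 3.85, 4.03, 4.80, 5.97 and 10.1 CPM, against controls from 0.43 through a median of 1.86 to 2.57 CPM, with no overlap. The means were 5.75 ± 2.57 CPM in exposed and 1.81 ± 0.68 CPM in control ovaries (log2 fold change 1.66 ± 0.31, adjusted p = 0.00953), or 3.17-fold, on 50 to 188 raw counts in exposed and 7 to 56 in control libraries. Sele was the only probe called in this comparison, 0.0435% of 2300. Leaving out exposed rat F504, whose level was the highest, gave 1.36 with an adjusted p of 0.334, and a fit of only these exposed ovaries and their controls gave the same change of 1.66 with an adjusted p of 0.167. Leaving out each of the other libraries in turn kept the call.

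Means of Sele in these ovaries were not in the order of the concentrations. Its means were 2.47 ± 1.14, 3.56 ± 1.17, 4.70 ± 2.31 and 2.27 ± 0.47 CPM at 1, 10, 30 and 100 ppm, and 2.96 ± 0.87 CPM at 500 ppm. At 30 ppm the change was 1.37 ± 0.31 with an unadjusted p of 8.5e-05 and an adjusted p of 0.196, and at 100 ppm it was 0.33 ± 0.32. All 6 changes were positive, and the slope of 0.18 ± 0.06 per step missed the threshold (adjusted p = 0.0802; 1.13% of slopes called). At 500 ppm of 1,2-DCB none of the 5 genes was called, where 2.91% of probes were called and 1.39% called lower; Sele had 0.70 ± 0.31 (adjusted p = 0.23). None of the 13 leukocyte, 9 fibroblast or 3 platelet markers was called at 250 ppm, and leukocyte markers summed to 1598 to 2278 CPM in exposed and 1388 to 2280 CPM in control ovaries. Of 34 other probes of the endothelial lists none was called at 250 ppm, and at 500 ppm Ace (0.82 ± 0.17) and Procr (0.61 ± 0.14) rose.

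Sele in ovary was not called with 1,4-DCB. The 5 ovaries at 800 ppm had 4.92, 5.62, 6.72, 7.14 and 7.89 CPM, and the controls ran from 2.099 through 3.01 to 7.47 CPM; 9 of 10 controls lay below all exposed ovaries and control rat F6 overlapped them. The change was 0.98 ± 0.40 (adjusted p = 0.127), and it was called in a fit of only this group and its controls (adjusted p = 0.0268). From 1 to 400 ppm the changes of Sele lay between -0.65 and 0.087. At 800 ppm none of the 5 genes was called, where 8.47% of probes were called and 4.23% called lower, 0.922% of slopes and 12% in the contrast of ovary with the other tissues. Of 35 other probes of the endothelial lists 5 rose and 1 fell. Nrp1 by 0.73 ± 0.11, Kdr by 0.62 ± 0.14, Vcam1, an adhesion receptor like Sele, by 0.97 ± 0.22 and both Cxcl12 probes by 0.68 and 0.72 were higher. Adm was lower by 1.58 ± 0.47. In the same ovaries 2 of 8 ovary markers rose, with sums of 13980 to 21350 CPM in exposed and 8695 to 15830 CPM in controls, 1 of 13 leukocyte markers rose and 1 of 9 fibroblast markers fell. Their part in these changes was not tested.

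The fitted change of Sele at the top concentration was also positive in the other tissues tested, without a call. In hearts it was 5.25 ± 1.39 CPM at 500 ppm of 1,2-DCB and 3.52 ± 1.56 CPM in controls (0.58 ± 0.30, adjusted p = 0.235). At 800 ppm of 1,4-DCB hearts had 4.26 ± 1.39 CPM and controls 2.94 ± 0.91 CPM (0.55 ± 0.30, adjusted p = 0.307). Exposed heart F601 had 1.91 CPM, below the mean of these controls. Lungs at 500 ppm of 1,2-DCB had 3.15 ± 0.40 CPM and controls 2.02 ± 0.80 CPM (0.64 ± 0.33, adjusted p = 0.279). Kidney values were 0.53 CPM and below on average in either compound. Intervals of the change there ran from -1.16 to 2.08 on the log2 scale and leave its size undetermined at counts this low.

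Below the top concentration, 50 comparisons with 240 tests of the 5 genes gave the 1 call on Sele. Over all probes 0.73% of tests were called there. Unadjusted p below 0.05 occurred 5 times for Vwf, 6 for Pecam1, 0 for Nos3, 3 for Sele and 6 for Esm1. The 0.73% counts adjusted calls, so it is no background for these numbers. The share of all tests with such an unadjusted p was not computed. The Vwf value nearest to a call was 0.63 ± 0.21 in 1,2-DCB heart at 1 ppm, at 331 ± 111.9 CPM in exposed and 214 ± 72.2 CPM in control hearts (adjusted p = 0.0688). It was called with DESeq2 (adjusted p = 0.0408) and with a filter at a mean of 20 CPM (adjusted p = 0.0438). Rat F102 of that group stood apart in its normalization factor of 1.63, and without it Vwf had 0.48 (adjusted p = 0.425).

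The compounds could be tested against each other at 1 and 10 ppm, the concentrations they share. Each contrast was the change with 1,2-DCB minus the change with 1,4-DCB, each against its own controls, and 48 values of the 5 genes were tested over 5 tissues. None was called by edgeR, where 0.207% of all probe tests were, and 5 had an unadjusted p below 0.05. How many of all probe tests had such an unadjusted p was not computed. The Pecam1 difference in kidney at 10 ppm was 0.49 (interval 0.18 to 0.80, adjusted p = 0.282). Vwf in kidney differed by -0.57 (interval -1.06 to -0.07) at 1 ppm and by -0.63 (-1.11 to -0.16) at 10 ppm, with adjusted p of 0.999 and 0.462. For Pecam1 all intervals lay within -0.85 and 0.80 and for Vwf within -1.11 and 1.04, so larger differences at these concentrations fall outside the intervals. For Sele and Esm1 they reached from -2.95 to 2.37 and from -4.02 to 1.44, wide enough to hold changes of several fold. Placing the chlorines side by side or opposite each other therefore gave no called difference in these genes at 1 or 10 ppm. Without rat F201 of the 1,2-DCB kidneys at 10 ppm, the change of Pecam1 there was 0.22, against 0.30 ± 0.10 with it.

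**Figure D4:**
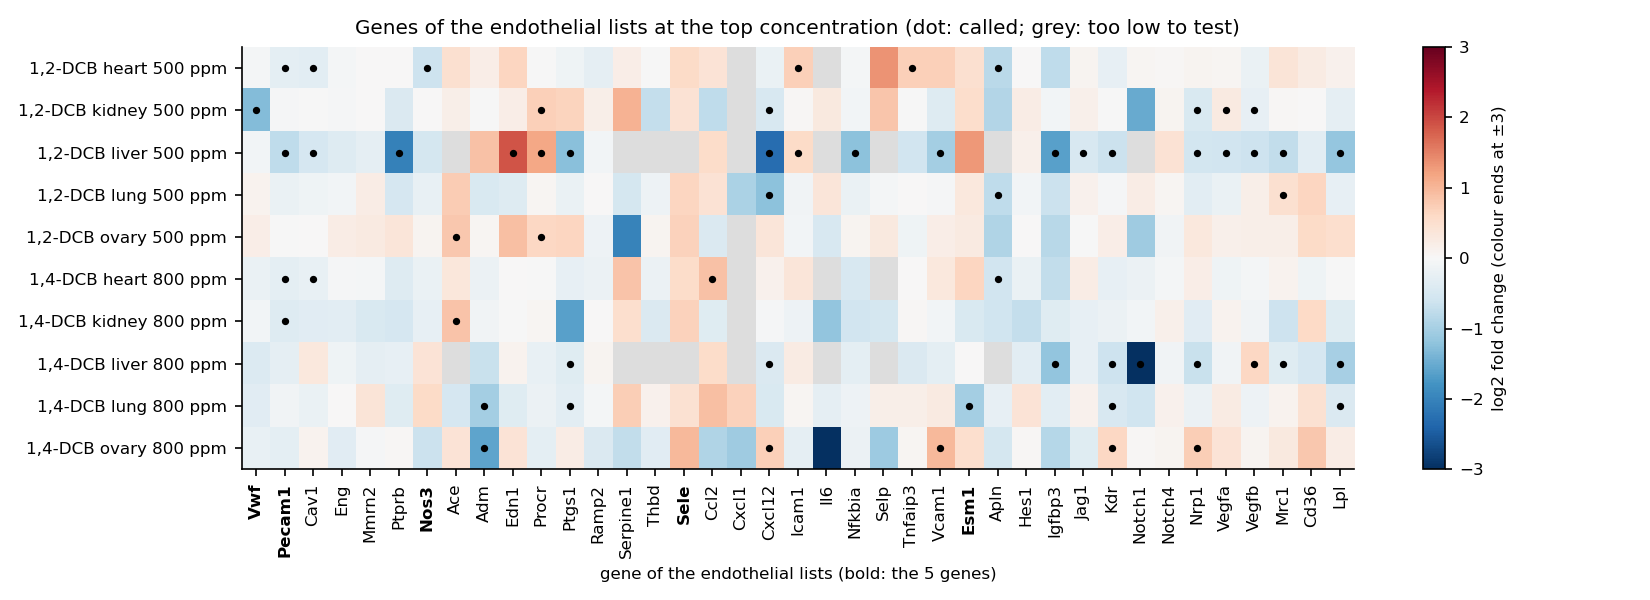
Log2 fold change at the top concentration of the genes of the endothelial lists that could be tested (39 genes, the 5 genes in bold) in rows of compound and tissue; blue is lower and red higher in exposed rats, dots are calls, grey was too low to test, and for a gene with several probes the one with the smallest adjusted p is shown. The 1,2-DCB liver row holds 18 of the 60 dots, the 1,4-DCB liver row 9 and every other row 2 to 6. These liver rows had 30 and 31 tests, and over all probes 67.8% and 34.9% were called there. In the other rows, with 36 to 39 tests, the share called over all probes ran from 2.91% to 16.4%. Dots are of both directions except in 1,4-DCB lung, where all are lower, and in 1,2-DCB ovary, where both are higher.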

How the data were processed

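Per the labels, tissue was kept in RNAlater and RNA was extracted with QIAzol and RNeasy kits. The file deposited by the authors holds a raw read count for every probe in every library, adjusted for attenuation. Bowtie 1.3.1 is named in the submitters' processing notes, without its role. Settings, genome build and probe reference: not given in the sources used here. Libraries were grouped by the labelled compound, tissue and concentration, and 9 libraries that the labels mark as not used (5 for depth, 2 for alignment rate, 2 as outliers) entered 1 alternative only. Each library of a group is a different rat, named in the title, and the title also ties the tissues of a rat together. No molecular identifiers are mentioned, so reads may be PCR copies and counts speak for counting error only.

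The members, lists, tests and the rule for named genes were chosen with earlier results of these data known. The deposited counts entered edgeR 4.0.16 (R 4.3.3): TMM, filterByExpr and a robust quasi-likelihood fit of all 7 groups of a tissue and compound (10 fits), each of 6 concentrations against its controls (60 comparisons), with Benjamini-Hochberg adjustment over all probes tested. The slope used the rank of the concentration. Tissues were contrasted in a joint fit per compound, and compounds in a joint fit per tissue. Control tissues were compared on log2 CPM (prior count 2) by permutation (100000 resamples, Python 3.11.15, scipy 1.17.1). Named other genes are called members of the lists where one of the 5 genes is called, up to 4 a list, and the 3 genes nearest to each of the 5 by Pearson r; those named in ovary at the top concentration were added after their values were seen. SE is the log2 fold change divided by the root of the F statistic, and intervals cover 95%. The fits were tested on simulated counts. Alternatives were DESeq2 1.42.0, its size factors, other filters, smaller fits, counts divided by each probe's attenuation step, the unused libraries, leaving out single libraries and the rat as a block, whose fit took its dispersion from glmQLFit in place of estimateDisp; that dispersion without the block was added.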

Additional observations from a re-analysis of the deposited data

Results flagged for a closer look

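A sample far from the rest of its group was looked for in groups of 4 to 10 libraries (controls, the top concentration and 1,2-DCB ovary at 250 ppm, each gene), with Dixon's ratio on log2(CPM + 0.5), and 10 were found, 9.9% of the groups tested. Chance flags about 1 in 20 groups. Esm1 stood apart in 1,2-DCB control heart F9 (1.50 CPM, others 4.77 to 10.3), in 1,2-DCB control lung F5 (60.7 CPM, others 32.2 to 44.7) and in 1,4-DCB kidney F603 at 800 ppm (7.88 CPM, others 11.2 to 12.4). Vwf stood apart in 1,2-DCB control heart F2 (397 CPM, others 161 to 255), control kidney F6 (164 CPM, others 258 to 392) and control ovary F6 (71.6 CPM, others 54.1 to 62.6). Rat F602 at 800 ppm of 1,4-DCB was the lowest liver for Pecam1 (1.56 CPM, others 2.39 to 2.79) and the highest for Vwf (4.45 CPM, others 2.04 to 2.504). Nos3 was low in 1,2-DCB control lung F7 (0.378 CPM, others 1.79 to 4.55), and Sele was low in 1,4-DCB heart F601 at 800 ppm (1.91 CPM, others 4.42 to 5.62).

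A change at the top concentration differed from the mean of the other 4 tissues in 3 tests, all with 1,2-DCB: Vwf in kidney (-1.33 on the log2 scale, adjusted p = 6.56e-07), Pecam1 in liver (-0.79, adjusted p = 2.28e-06) and Vwf in ovary (0.55, adjusted p = 0.0405), by edgeR's quasi-likelihood test. What lies behind any of these values was not tested.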

How the results depend on the processing

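Calls were few and mostly near the threshold, so their number moved with small changes. A filter at a mean of 20 CPM, which leaves low genes untested, gave 1 call in 1,2-DCB heart at 500 ppm, 0 in liver at 500 ppm and 0 in ovary at 250 ppm. With only the exposed group and its controls in the fit there were 0 calls in 1,4-DCB kidney, 1 in 1,4-DCB ovary and 0 in 1,2-DCB ovary at 250 ppm, and 0 over the 50 comparisons below the top. DESeq2 gave 2 calls below the top, and its size factors 0 in 1,4-DCB kidney. Over leave-one-out fits the calls at the top ran from 0 to 2 in 1,2-DCB heart, 1 to 2 in kidney and liver, and 0 to 1 in 1,4-DCB heart, kidney, liver and lung and in 1,2-DCB ovary at 250 ppm. Without the top concentration 1 slope was called in place of 3, Vwf in 1,2-DCB liver (0.06 per step, adjusted p = 0.0391). With the rat as a replicate block 4 tissue contrasts were called in place of 3, the addition being Esm1 in 1,4-DCB lung; the dispersion method of that fit without the block, added after the data were seen, called 3. DESeq2 size factors gave 4, adding Pecam1 in 1,2-DCB ovary (0.40, adjusted p = 0.0321). Between control tissues, tests without the block called 15 pairs, as with it, and Vwf in kidney against heart was lost with DESeq2 size factors and with counts divided by each probe's step. CPM of the library total, chosen after the data were seen, called 19 pairs and turned control liver minus kidney of Nos3 to -2.34 and heart minus ovary of Esm1 to -0.93. The falls of Vwf in kidney and of Pecam1 in liver with 1,2-DCB kept direction and call in every alternative that tested them, from -1.37 to -1.24 and from -0.80 to -0.68. The cause of the changes was not tested. Low counts limit Sele in liver and kidney and Esm1 and Nos3 in liver.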
